A study of Mus musculus with 32 samples.

Results

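Denervated muscle at 7 d was set against muscle at 0 d, gene by gene, in 4 samples of each. The tissue was gastrocnemius (GAS), the large calf muscle, whose motor axons run in the sciatic nerve. RNA sequencing of the time course covered 32 samples, 4 at each of 8 time points from 0 to 28 d, and the values were deposited as FPKM, the fragments of a gene scaled to the length of its exons in kilobases and to the total fragments of the sample. A gene entered the comparison when its FPKM was at least 0.1 in at least 4 of these 8 samples, and 17965 of the 33397 genes in the table did so, while 15432 stayed under this minimum. The strain is C57BL/6 in the labels and C57BL/6J in the study's methods, which give male mice of 6 to 8 weeks, and the labels of these samples list no genetic change. Mice were operated on under isoflurane with buprenorphine for pain, and denervation was by excision from the left sciatic nerve. The labels give the transection as the treatment of the 0 d samples as well, and do not call them sham, while the study describes its sequencing controls as sham muscle that was not denervated. They are named the 0 d group. The design text speaks of 32 different muscles, but nothing ties a sample to an animal, so the p-values measure the spread between these samples.

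Values of single samples are given in FPKM in the order C1, C2, C3 and C4 for 0 d and D7a, D7b, D7c and D7d for 7 d. Recovered depth ran from 14925279 to 15874336 fragments per sample at 0 d and from 15534909 to 17473355 at 7 d. The text of the extraction protocol in the labels mentions retina, so the tissue was checked against marker genes. The summed FPKM of 8 genes of mature muscle fibres was 43400 to 46490 at 0 d and 29020 to 33220 at 7 d. The summed FPKM of the retinal markers stayed between 0.131 and 0.334 at 0 d and between 0.262 and 0.524 at 7 d, and 1 of them, Opn1sw, reached the minimum.

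In an innervated fibre, acetylcholine receptors are kept under the nerve ending, and electrical activity holds receptor genes silent along the rest of the fibre. Loss of the nerve is known to lift this repression through myogenin and other myogenic factors. Denervated fibres also lose mass: ubiquitin ligases, the proteasome and the autophagy and lysosome system break down myofibrils and organelles, while the enzymes of energy metabolism decline.

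At 7 d, 3409 genes (19.0% of those tested) were higher and 903 (5.03%) were lower than at 0 d, at a limma adjusted p under 0.05 and a change of at least 1.5-fold on log2(FPKM + 1). On this scale, changes of weakly expressed genes come out smaller than they are. Mitochondrial genes took 14.5% to 18.2% of the fragments at 0 d and 6.70% to 11.3% at 7 d, and FPKM divides every gene by the same total. With mitochondrial genes left out of that total, 2673 genes were higher and 1178 lower, so 69.4% of calls were still higher. Median-ratio scaling, which sets the typical gene equal between samples, moved the median log2 fold change of all tested genes from 0.20 to 0.01 and gave 1541 higher (8.58%) and 1706 lower (9.50%) genes. The share of calls that were higher was 79.1% as deposited and 47.5% after this scaling. Counts after this scaling are given in parentheses, higher first unless stated, or in words. The counts of each list are to be read against these shares of all tested genes. In 8767 genes (48.8%) the 4 samples of 7 d lay wholly above or wholly below those of 0 d, and the genes described one by one are to be read against that share.

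**Figure D1:**
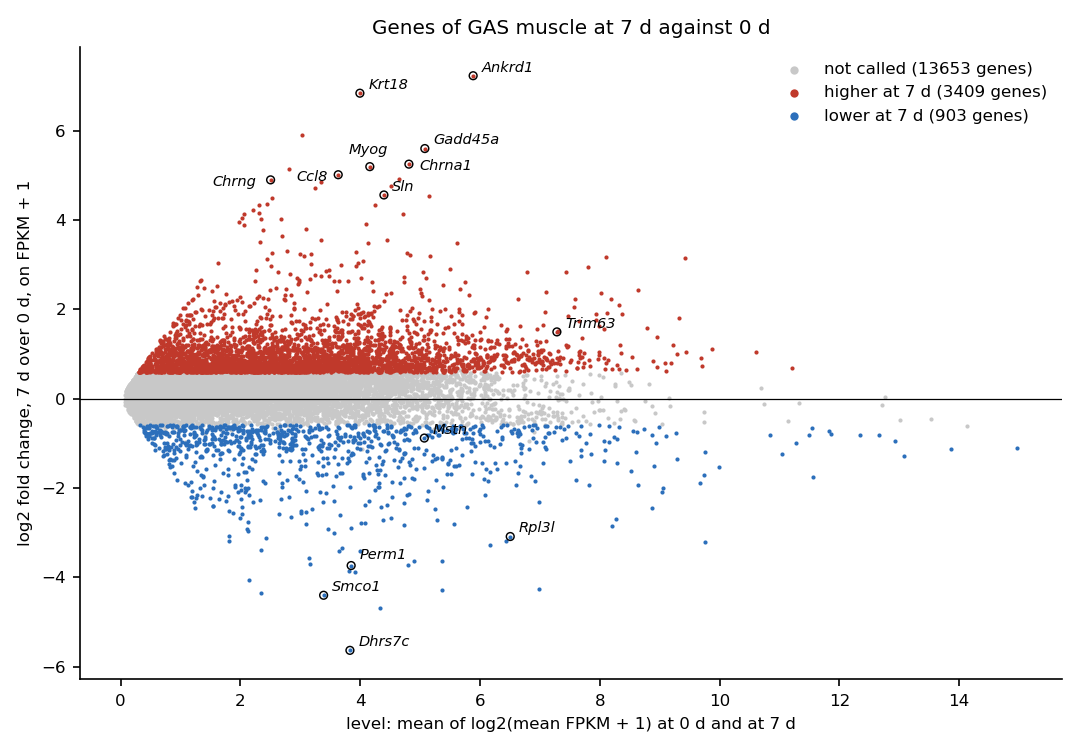
Log2 fold change of each tested gene at 7 d over 0 d (vertical axis, on FPKM + 1) against its level, the mean of log2(mean FPKM + 1) of both groups (horizontal axis). Red points are the 3409 higher genes, blue points the 903 lower genes and grey points the 13653 genes that were not called; Ankrd1 and Krt18 lie at the top and Dhrs7c at the bottom among the circled genes.

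The subunits of the muscle acetylcholine receptor split into those that rose and the adult epsilon subunit, which was not called. Of 5 subunits, 4 rose and none fell, with a median log2 fold change of 4.84, and the same 4 rose after median-ratio scaling (median 4.56). Chrna1, the alpha subunit that binds acetylcholine (ENSMUSG00000027107; chromosome 2, 73563215 to 73580338, minus strand, GRCm38), was at 4.11, 3.02, 3.40 and 3.68 at 0 d and at 161, 186, 195 and 148 at 7 d. All 7 d samples lay far above all 0 d samples, and the log2 fold change was 5.25 ± 0.11 (SE, limma adjusted p = 1.55e-09). Chrng, the gamma subunit of the fetal receptor (chromosome 1, 87204657 to 87212694, plus strand), was near absent at 0 d, at 0.0156, 0.0966, 0 and 0.0454, and stood at 31.9, 31.0, 28.4 and 28.5 at 7 d. Its log2 fold change was 4.90 ± 0.07 (SE, limma adjusted p = 4.07e-10). Chrnd, the delta subunit, went from 0.770, 0.917, 0.956 and 0.939 to 60.3, 56.5, 50.4 and 47.5 (4.84 ± 0.09, limma adjusted p = 8.8e-10). Chrnb1, the beta subunit, had the smallest rise of the 4, from 11.4 ± 0.838 to 87.2 ± 10.4 (SD, n = 4), which is 2.83 on the log2 scale. Chrne, which replaces gamma in the adult receptor, was at 6.72, 6.38, 8.29 and 9.06 at 0 d and at 7.44, 6.23, 5.85 and 5.64 at 7 d. These groups overlap, and the log2 difference of -0.24 ± 0.12 (SE, limma adjusted p = 0.126) was not called. After median-ratio scaling it was -0.57 (limma adjusted p = 0.00382), just short of 1.5-fold and also not called. At 7 d the FPKM of Chrng was thus above that of Chrne in every sample.

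Promoter sequence is shown for the alpha, beta, gamma and epsilon subunits and for myogenin, because E-boxes, the CANNTG sites that myogenic factors bind, are well-known elements of receptor genes. Each line gives the 250 bases before the transcription start in RefSeq (GRCm38.p6), read 5′ to 3′ on the gene's own strand, with each CANNTG in capitals. The lines are Chrna1 at chr2:73580339-73580588 (minus strand), Chrnb1 at chr11:69795938-69796187 (minus strand), Chrng at chr1:87205561-87205810 (plus strand), Chrne at chr11:70619195-70619444 (minus strand) and Myog at chr1:134289754-134290003 (plus strand).
Chrna1: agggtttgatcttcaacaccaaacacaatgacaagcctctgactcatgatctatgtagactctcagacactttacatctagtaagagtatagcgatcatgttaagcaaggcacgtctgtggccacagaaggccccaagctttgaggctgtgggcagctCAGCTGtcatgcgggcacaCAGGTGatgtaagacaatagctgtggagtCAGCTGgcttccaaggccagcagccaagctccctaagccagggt
Chrnb1: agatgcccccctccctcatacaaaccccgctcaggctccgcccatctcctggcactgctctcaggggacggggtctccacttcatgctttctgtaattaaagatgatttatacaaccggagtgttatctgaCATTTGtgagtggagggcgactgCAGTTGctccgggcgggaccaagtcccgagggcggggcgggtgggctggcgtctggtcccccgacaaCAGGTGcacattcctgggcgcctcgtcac
Chrng: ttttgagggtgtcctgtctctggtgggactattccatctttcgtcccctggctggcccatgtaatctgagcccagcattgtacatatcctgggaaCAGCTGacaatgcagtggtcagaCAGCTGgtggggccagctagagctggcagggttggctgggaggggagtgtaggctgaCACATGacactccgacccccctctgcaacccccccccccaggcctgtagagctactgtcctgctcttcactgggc
Chrne: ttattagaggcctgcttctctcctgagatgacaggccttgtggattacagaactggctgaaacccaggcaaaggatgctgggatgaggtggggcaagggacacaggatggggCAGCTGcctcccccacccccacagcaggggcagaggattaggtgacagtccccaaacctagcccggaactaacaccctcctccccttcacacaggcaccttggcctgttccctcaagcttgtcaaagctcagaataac
Myog: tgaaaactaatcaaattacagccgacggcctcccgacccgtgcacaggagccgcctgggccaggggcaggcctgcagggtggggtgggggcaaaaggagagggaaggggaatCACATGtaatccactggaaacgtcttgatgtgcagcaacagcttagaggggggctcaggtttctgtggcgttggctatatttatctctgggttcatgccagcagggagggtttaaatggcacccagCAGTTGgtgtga
The RefSeq start of Chrng lies inside the gene as GENCODE gives it above, so its window covers bases that the latter counts as part of the gene, and the windows of Chrnb1, Chrne and Myog overlap the GENCODE gene at their ends. CANNTG reads the same on both strands, and CAGCTG is a special case of it. The window of Chrna1 held 3 E-boxes, whose first bases lie at -92, -73 and -44 from the start, and 2 of them were CAGCTG. That of Chrnb1 also held 3, at -119, -96 and -29, and none was CAGCTG. That of Chrng held 3, at -155, -132 and -75, of which 2 were CAGCTG. That of Chrne held 1, a CAGCTG at -138, and that of Myog held 2, at -138 and -12, neither of which was CAGCTG. Over all 32851 promoters in the table, 66.2% held at least 1 CANNTG and 13% a CAGCTG in the same window. Taking 1 promoter per gene, CAGCTG was in 12.5% of the 2362 higher genes, in 14.3% of the 581 lower genes and in 12.5% of the 11706 tested genes with an entry. A match describes letters in this window and does not show a bound site.

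Other proteins of the neuromuscular junction moved in both directions. Of 12 tested, 5 rose and 2 fell (4 and 2 after median-ratio scaling). Musk, the receptor kinase that clusters acetylcholine receptors, was at 8.34, 7.84, 12.02 and 10.8 at 0 d and at 56.4, 71.0, 69.2 and 60.6 at 7 d, without overlap (log2 fold change 2.62 ± 0.13, limma adjusted p = 3.65e-07). Its partner Lrp4, the receptor for agrin, rose by 1.05 and the adhesion molecule Ncam1 by 2.06. Ache, which breaks down acetylcholine, fell from 6.11, 5.78, 5.77 and 6.12 to 1.37, 1.35, 1.02 and 0.947, again without overlap (-1.68 ± 0.09, limma adjusted p = 5.48e-07). Colq, the collagen tail that anchors this enzyme, fell by 1.05 on the log2 scale. Rapsn, the scaffold of the receptor clusters, was scattered in both groups, from 0.892 to 7.31 at 0 d and from 2.15 to 7.18 at 7 d, and was not called.

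Myogenic transcription factors and the repressors that respond to activity rose for the most part. Of 15 tested, 9 rose and 1 fell (9 and 2 after median-ratio scaling), with a median log2 fold change of 2.31. Myog (myogenin) was at 1.61, 1.61, 2.58 and 2.06 at 0 d and at 107, 96.0, 120.1 and 104 at 7 d. The groups were far apart, with a log2 fold change of 5.19 ± 0.11 (SE, limma adjusted p = 2.25e-09). Myod1 and Myf6, of the same family, rose by 3.27 and 3.17, while Myf5 (0.51) did not reach 1.5-fold. Hdac4, the deacetylase that couples nerve activity to receptor genes, rose by 2.31 and Runx1, a transcription factor of denervated muscle, by 3.78. Dach2, a repressor of myogenin, was the member that fell, from 0.915 ± 0.142 to 0.158 ± 0.0221 (SD, n = 4). The growth arrest genes Gadd45a and Cdkn1a had log2 fold changes of 5.60 and 4.33. Gadd45a stood at 2.28, 3.30, 6.28 and 3.93 at 0 d and at 219, 276, 215 and 210.4 at 7 d, and 337 of its exon bases overlap a gene on the other strand. Its relatives Gadd45b and Gadd45g moved the opposite way, to -1.66 and -1.78.

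**Figure D2:**
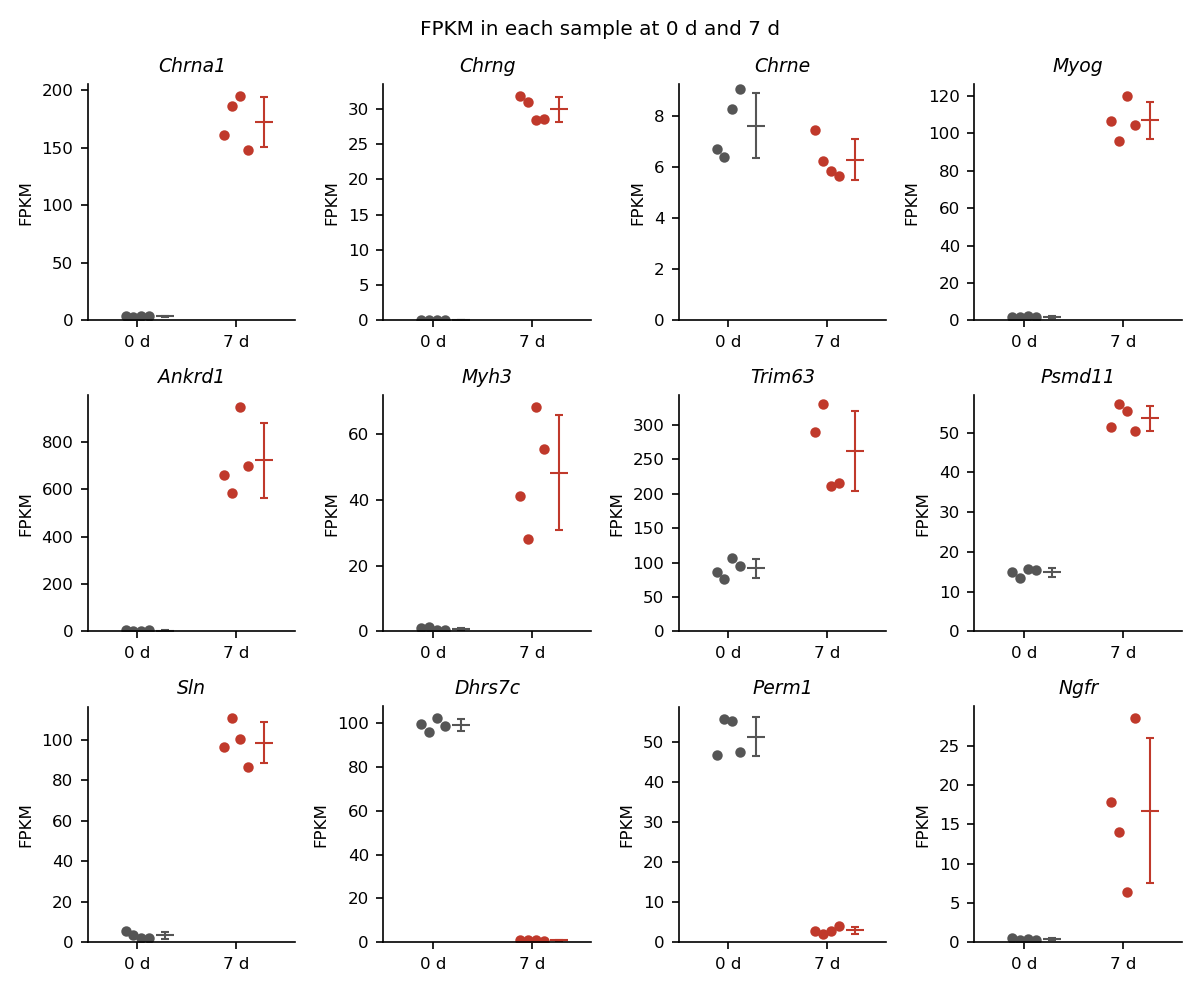
FPKM of 12 genes in each sample (vertical axes), with 0 d on the left and 7 d on the right of each panel; points are the 4 samples of a group and the marker with bars beside them is the mean ± SD. The groups do not overlap in Chrna1, Chrng, Myog, Ankrd1, Myh3, Trim63, Psmd11, Sln or Ngfr, which are higher at 7 d, or in Dhrs7c and Perm1, which are lower, and they overlap in Chrne.

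Excitation-contraction coupling, by which a sarcolemmal action potential releases calcium from the sarcoplasmic reticulum, shifted toward lower levels. Of 23 genes, 4 rose and 8 fell, and 2 rose and 11 fell after median-ratio scaling. Dhrs7c, a dehydrogenase of the sarcoplasmic reticulum (chromosome 11, 67798187 to 67816002, plus strand), was at 99.6, 95.6, 102 and 98.4 at 0 d and at 0.953, 1.07, 1.27 and 0.789 at 7 d. No other gene of the lists fell as far, at -5.63 ± 0.08 (SE, limma adjusted p = 4.07e-10). Jph2, which holds the reticulum against the transverse tubules, fell by 1.58 on the log2 scale, the calcium buffer Casq1 by 1.00 and Hrc, a luminal calcium-binding protein, by 1.15. Sln (sarcolipin), the small inhibitor of the calcium pump, moved the other way, from 5.81, 3.81, 2.04 and 2.15 to 96.3, 111, 100.3 and 86.7. Every 7 d sample was above every 0 d sample (4.56 ± 0.23, limma adjusted p = 3.65e-07), while the related inhibitors Pln and Mrln were not called (0.12 and 0.02). The pump itself, Atp2a1, fell from 3753 ± 454 to 2361 ± 235 (SD, n = 4). Cacng1, a subunit of the voltage sensor, rose by 1.90.

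Ion channels of the fibre surface had calls in both directions. Of 19, 6 rose and 4 fell (4 and 7 after median-ratio scaling). Kcna7, a potassium channel, was at 49.9, 60.4, 52.96 and 47.9 at 0 d and at 7.10, 6.85, 7.31 and 7.29 at 7 d, without overlap (-2.72 ± 0.08, limma adjusted p = 1.14e-08). The sodium channel Scn4a stayed at 52.0 to 68.8 at 0 d and 49.4 to 62.5 at 7 d, and was not called. Kcnn3, a calcium-activated potassium channel, rose by 4.02 and the hemichannel Panx1 by 2.29. Clcn1, the chloride channel that steadies the resting fibre, fell by 1.39 on the log2 scale.

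Contractile genes of adult fibres are taken first. Of 11 fast-fibre genes, 1 rose and 5 fell (0 and 6 after median-ratio scaling, 1 and 3 after quantile scaling), and of 9 slow-fibre genes 0 rose and 2 fell (0 and 3 after either). Tnnc2, the fast troponin C, was listed at only 0.670 to 1.05 at 0 d and 0.820 to 1.29 at 7 d, and whether counting or annotation lowered it was not tested. Myh4, the myosin heavy chain of the fastest fibres, was at 4879, 4412, 6504 and 6331 at 0 d and at 1434, 1486, 2007 and 1617 at 7 d, without overlap (-1.75 ± 0.18, limma adjusted p = 3.67e-05). The other adult fast chains Myh1 and Myh2 were not called (-0.16 and -0.06). Mylk2, the kinase of the fast myosin light chain, fell by 3.19 on the log2 scale and Mybpc2, fast myosin-binding protein C, by 2.45. Actn3 was the member that rose (0.69), and it was not called after median-ratio scaling (0.31, limma adjusted p = 0.221). Slow genes varied between samples of a group: Myh7 ran from 23.3 to 47.6 at 0 d and from 8.89 to 51.8 at 7 d, with sample D7b the highest.

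Developmental and cardiac contractile genes, 7 tested, gave 5 that rose and 1 that fell under both scalings. Myh3, the embryonic myosin heavy chain, went from 0.996, 1.22, 0.573 and 0.426 to 41.2, 28.2, 68.5 and 55.7, with the lowest 7 d sample far above the highest 0 d sample (4.72 ± 0.25, limma adjusted p = 4.91e-07). Mybph rose by 4.54 and Myl4, an embryonic light chain, by 3.01. Actc1, cardiac alpha-actin, fell instead, by 1.57 on the log2 scale.

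Z-disc, titin-linked and intermediate filament genes rose for the most part. Of 20, 13 rose and 2 fell (11 and 3 after median-ratio scaling). Ankrd1, an ankyrin repeat protein that binds titin (ENSMUSG00000024803; chromosome 19, 36111961 to 36120099, minus strand), was at 4.59, 2.79, 3.02 and 4.96 at 0 d and at 658, 584, 948 and 696 at 7 d. The log2 fold change was 7.23 ± 0.18 (SE, limma adjusted p = 4.57e-09). The simple keratins Krt18 and Krt8 had 6.84 and 5.91. With a pseudocount of 0.1 the order of these 3 was Krt8 (8.86), Krt18 (8.29) and Ankrd1 (7.54), so the ranking of these genes depends on the pseudocount. Krt8 had at most 2 fragments in a 0 d sample, and 101 of its exon bases overlap a gene on the other strand. Igfn1, an immunoglobulin-like protein of the Z-disc, rose by 4.76 and Csrp3, a muscle LIM protein, by 2.85. Synm (-0.96) and Myot (-0.80) fell.

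Among muscle ubiquitin ligases the direction depended on scaling. As deposited, 8 of 22 rose and 1 fell with a median log2 fold change of 0.25, while after median-ratio scaling 3 rose and 3 fell and the median was -0.05. Trim63, which encodes MuRF1, was at 86.6, 76.1, 107 and 95.6 at 0 d and at 289, 329.8, 212 and 216 at 7 d. Its groups did not overlap, and it rose under both scalings (1.49 ± 0.16, limma adjusted p = 4.45e-05). Fbxo32, which encodes atrogin-1, was listed at 0.791, 0.807, 1.14 and 0.894 and at 1.56, 1.03, 1.08 and 1.70, a log2 difference of 0.29 that was not called (limma adjusted p = 0.0605; exact permutation test, two-sided, p = 0.0857). These FPKM values are very low for a gene that muscle is known to express well, and whether counting or annotation lowered them was not tested. Exons of Fbxo32 overlap another gene, Gm15943, over 186 of 6976 bases. Fbxo30, a ligase under the control of BMP signals, rose by 1.32 and Klhl40, an adaptor that stabilises thin filaments, by 1.45, both also after median-ratio scaling. Asb2 fell (-0.77).

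Proteasome genes rose together. All 32 subunits tested were called higher, with log2 fold changes from 0.67 (Psmb2) to 1.78 (Psmd11) and a median of 1.10, against a median of 0.20 over all tested genes. After median-ratio scaling 21 of the 32 were higher and none was lower. Psmd11, a subunit of the regulatory lid, was at 14.98, 13.3, 15.6 and 15.5 at 0 d and at 51.4, 57.1, 55.4 and 50.3 at 7 d, which left a wide gap between the groups. Psmd4, a ubiquitin receptor of the particle, rose by 1.55.

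Lysosomal genes rose nearly throughout as deposited, and most autophagy genes were not called. Of 26 autophagy and mitophagy genes, 8 rose and none fell (4 and 2 after median-ratio scaling), beside 19.0% higher over all tested genes as deposited and 8.58% after this scaling. Map1lc3a, an LC3 protein of the autophagosome membrane, was at 119, 114, 121 and 98.7 at 0 d and at 601, 604, 628 and 514 at 7 d, a clear separation (2.36 ± 0.10, limma adjusted p = 8.85e-08). The cargo receptor Sqstm1 rose by 1.19, and Ulk1, a kinase that starts autophagy, was not called (0.26). Of 20 lysosomal genes, 18 rose and 1 fell (11 and 1). Ctsl (cathepsin L) went from 22.8, 20.1, 20.7 and 19.7 to 119, 120.5, 115 and 118, with little spread in either group (2.45 ± 0.06, limma adjusted p = 6.05e-09). Tfeb, the transcription factor of lysosomal genes, was the member that fell (-0.73). Ctss, a cathepsin of immune cells, was highest in D7a and D7d (86.6 and 144, against 43.5 and 35.2 in D7b and D7c), the order that macrophage markers also show further on. Of 9 calpain genes, Capn2 (1.01) rose, Capns1 rose as deposited and not after median-ratio scaling (0.86 and 0.49), and Capn3, the calpain of skeletal muscle, fell by 1.39 on the log2 scale.

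**Figure D3:**
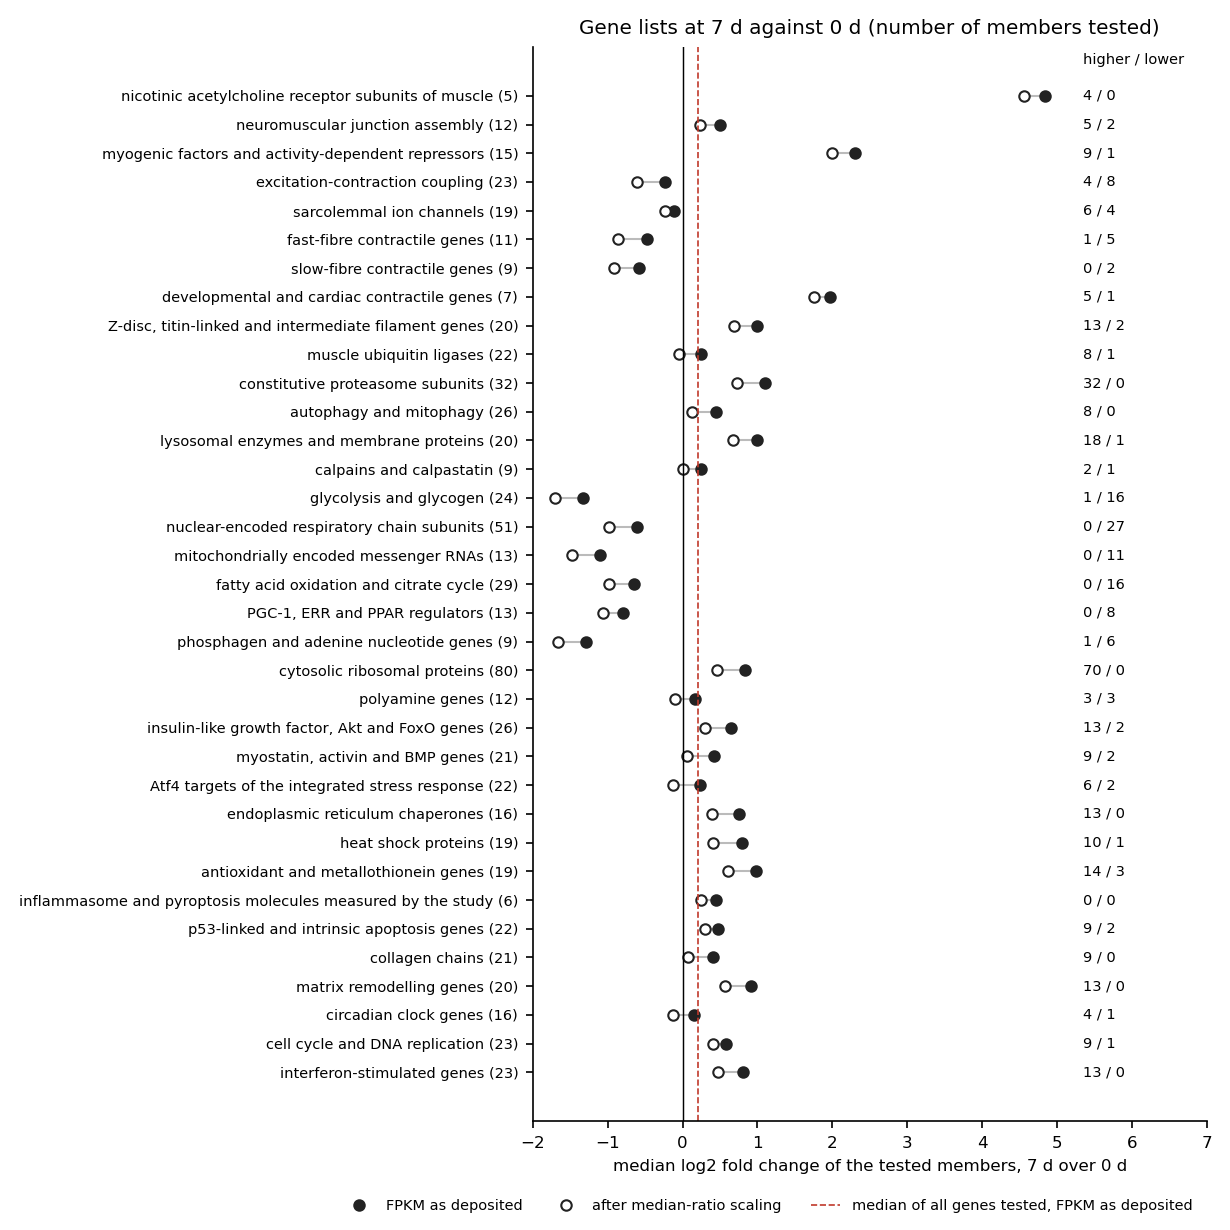
Median log2 fold change of the tested members of 35 gene lists at 7 d over 0 d (horizontal axis), as deposited (filled circles) and after median-ratio scaling (open circles), with the members called higher and lower at the right. The dashed line is the median of all tested genes (0.20); acetylcholine receptor subunits lie farthest to the right, and glycolysis, phosphagen and mitochondrially encoded genes farthest to the left.

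Genes of glycolysis and glycogen use fell. Of 24, 1 rose and 16 fell, with a median log2 fold change of -1.33 (1 and 19 after median-ratio scaling). Eno3, the muscle enolase, was at 2681, 2593, 2561 and 2587 at 0 d and at 301, 196, 328 and 323 at 7 d, without overlap (-3.21 ± 0.16, limma adjusted p = 3.43e-07). Tpi1 fell by 2.86 on the log2 scale, the muscle phosphofructokinase Pfkm by 2.00 and lactate dehydrogenase Ldha by 1.93. Gapdh, often used as a reference gene, was at 194, 194, 200 and 198 at 0 d and at 88.0, 87.7, 104 and 90.4 at 7 d, a fall of 1.08 on the log2 scale (two-sided exact permutation p = 0.0286, the smallest that 4 against 4 allow). The glycogen branching enzyme Gbe1 was the member that rose (1.02), and Eno1, the enolase of other tissues, was not called (0.23). Pygm, the muscle glycogen phosphorylase, was listed at a low 3.75 to 10.4 at 0 d and 5.39 to 7.62 at 7 d, and the same doubt applies to it as to Tnnc2.

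Genes of mitochondrial energy metabolism fell. Of 51 nuclear-encoded subunits of the respiratory chain, 27 fell and none rose, with a median of -0.61; after median-ratio scaling 49 fell. Cox7a1, the muscle form of a cytochrome c oxidase subunit, fell most among them, from 247, 256, 209 and 206 to 67.0, 63.5, 58.8 and 63.3 (-1.84 ± 0.09, limma adjusted p = 3.0e-07). Of 13 messenger RNAs encoded in the mitochondrion, 11 fell and none rose, with a median of -1.10 (0 and 11 after median-ratio scaling), and mt-Nd3 was at 84.3, 64.9, 45.7 and 62.8 at 0 d and 25.4, 20.6, 32.2 and 22.9 at 7 d. Under quantile normalization 6 of these 13 were lower. Of 29 genes of fatty acid oxidation and the citrate cycle, none rose and 16 fell (0 and 25 after median-ratio scaling), among them Acadm, a fatty acid dehydrogenase (-1.79), and Idh3a of the citrate cycle (-1.45).

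Regulators of mitochondrial genes fell as well. Of 13 genes around PGC-1, 8 fell and none rose under both scalings. Perm1, a muscle regulator downstream of PGC-1 and ERR, went from 46.7, 55.7, 55.2 and 47.5 to 2.80, 2.17, 2.75 and 4.17, with a wide gap between the groups (-3.74 ± 0.14, limma adjusted p = 5.48e-08). Ppargc1a, the gene of PGC-1alpha, fell by 0.79 on the log2 scale, Esrra by 1.09 and the activity-induced receptor Nr4a1 by 2.38. Tfam, which maintains mitochondrial DNA, was not called (0.00). Of 9 genes that buffer ATP, 6 fell and 1 rose under both scalings. Ckmt2, the mitochondrial creatine kinase, fell by 2.70 on the log2 scale, and Ampd3, an AMP deaminase of non-muscle tissues, rose by 2.86.

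Genes of protein synthesis moved with the scaling. Of 80 cytosolic ribosomal protein genes, 70 rose and none fell (median 0.84), and 20 rose and none fell after median-ratio scaling (median 0.46). Rpl3 had the largest rise of them, from 40.6, 34.9, 31.9 and 30.0 to 144, 141, 135 and 137 (2.00 ± 0.09, limma adjusted p = 1.97e-07). Its muscle-specific paralog Rpl3l, looked up after the values of Rpl3 were seen, fell from 264 ± 24.0 to 30.2 ± 2.81 (SD, n = 4), or by 3.09 on the log2 scale. At 0 d the FPKM of Rpl3l was above that of Rpl3 in every sample, and at 7 d it was below in every sample. Of 16 chaperones of the endoplasmic reticulum, 13 rose and none fell (4 and 0 after median-ratio scaling), Xbp1 by 1.40.

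Polyamine genes, 12 tested, had 3 that rose and 3 that fell (1 and 3 after median-ratio scaling), and the sign of their median changed with scaling (0.16 as deposited, -0.11 after median-ratio scaling). The median of all tested genes as deposited was 0.20, with 19.0% higher and 5.03% lower. Smox, which oxidises spermine, went from 90.7, 87.4, 122 and 114 to 8.02, 9.10, 5.26 and 7.49, without overlap (-3.63 ± 0.16, limma adjusted p = 1.34e-07). Amd1, an enzyme of spermidine synthesis, was 4.26 lower on the log2 scale, and its near-identical copy Amd2 was 3.12 lower. Reads may be shared between these copies, so both values are uncertain. Odc1, the enzyme that starts the pathway, rose by 1.34.

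Growth signalling genes were called in both directions, against a background in which 79.1% of all calls as deposited were higher. Of 26 insulin-like growth factor, Akt and FoxO genes, 13 rose and 2 fell (9 and 5 after median-ratio scaling). Akt1, a kinase of the insulin pathway, rose by 1.47, Mtor by 1.42, the transcription factor Foxo1 by 1.23 and the receptor Igf2r by 1.48. Irs1, the insulin receptor substrate, fell by 1.06 on the log2 scale, and Irs2 (-0.60) lost its call without C3 (-0.51), without C4 (-0.56) or without D7c (-0.55). Of 21 myostatin, activin and BMP genes, 9 rose and 2 fell (7 and 2). The 2 that fell were Mstn (myostatin), the inhibitor of muscle growth, at 38.0, 34.6, 53.1 and 53.6 and then 20.9, 27.4, 26.4 and 19.9 (-0.88 ± 0.16, limma adjusted p = 0.00136), and its receptor Acvr2b (-1.01). The BMP ligand Gdf5 rose by 2.21, and the BMP targets Id1, Id2 and Id3 rose by 1.01, 2.38 and 1.20.

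Stress genes did not move as a single group. Of 22 tested genes tied to Atf4, the factor of the integrated stress response, 6 rose and 2 fell as deposited, 3 rose and 5 fell after median-ratio scaling, and the median went from 0.24 to -0.12. Over all tested genes 19.0% were higher and 5.03% lower as deposited, with a median of 0.20, so these counts lie near that background. Atf3 rose by 2.62, Chac1, a glutathione-degrading enzyme, fell by 1.69 on the log2 scale and Atf4 itself by 0.63, with no call without D7c (-0.58). Of 19 heat shock genes, 10 rose and 1 fell (7 and 1). Hspb8, a small heat shock protein of Z-disc quality control, was at 225, 198, 255 and 243 at 0 d and at 1990.0, 1991, 2234 and 2006 at 7 d, without overlap (3.16 ± 0.10, limma adjusted p = 2.69e-08). Hspb1 rose by 1.92 and Hspb6 fell (-0.84). Of 19 antioxidant genes, 14 rose and 3 fell (10 and 3), with Txn1 (thioredoxin) at 2.23, its inhibitor Txnip at -1.66 and the mitochondrial dismutase Sod2 at -0.98. The metallothionein Mt2 was listed at 0 in all samples, and 432 of its 588 exon bases overlap a gene on the other strand.

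The inflammasome and pyroptosis molecules that the study measured were low and none was called. Of 6 genes, 0 rose and 0 fell under either scaling, with a median log2 fold change of 0.45. Nlrp3, the sensor, was at 0.0640, 0.0165, 0.0484 and 0.124 at 0 d and at 0.250, 0.240, 0.103 and 0.301 at 7 d, where D7c fell within the 0 d range (0.20, limma adjusted p = 0.0316; two-sided exact permutation p = 0.0571). Casp1 was at 0.890, 0.577, 1.25 and 0.884 and at 2.40, 1.57, 1.20 and 2.26, and D7c again lay within the 0 d range (0.58; exact permutation p = 0.0571). Gsdmd, which forms the pore, was at 3.00, 3.07, 3.09 and 3.00 and at 5.57, 3.92, 3.36 and 6.39, without overlap (0.49; exact permutation p = 0.0286). Il1b (0.52) and Pycard (0.41) also had no overlap, and Il18 did (0.30; exact permutation p = 0.257). With a pseudocount of 0.1, Nlrp3, Pycard, Casp1, Gsdmd and Il1b passed 1.5-fold and were called higher, at 0.98, 1.25, 0.96, 0.60 and 1.93. Over all tested genes this setting called 5367 of 17965 higher. With a pseudocount of 1, Casp1 passed 1.5-fold without C3 (0.66), without D7b (0.62) or without D7c (0.69), and Gsdmd (0.62) and Il1b (0.62) without D7c. These 5 genes had their highest value in D7a or D7d, the samples in which macrophage genes were highest, and the part of those cells in these values was not tested.

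Genes tied to p53 and intrinsic apoptosis, 22 tested, gave 9 that rose and 2 that fell (6 and 3 after median-ratio scaling). Eda2r, a receptor for ectodysplasin of the TNF receptor family, went from 6.42, 7.23, 10.3 and 9.94 to 82.5, 99.2, 85.8 and 74.6, without overlap (3.21 ± 0.15, limma adjusted p = 1.81e-07).

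Marker genes of cells other than fibres also differed between the groups. In bulk RNA, fewer cells of a type and less RNA per cell cannot be told apart, and the same holds for more cells. Of 14 macrophage and monocyte markers, 12 rose and none fell (11 and 0 after median-ratio scaling). Their summed FPKM was 182 to 264 at 0 d and 1099, 604, 509 and 1462 in D7a, D7b, D7c and D7d. All 7 d samples were above all 0 d samples, and D7a and D7d were higher than D7b and D7c. Lyz2, a lysozyme of myeloid cells, was at 139, 93.9, 123 and 118 and then 598, 303, 238 and 862 (1.90 ± 0.36, limma adjusted p = 0.00154), and Cd68, a lysosomal protein of macrophages, rose by 2.61. The chemokine Ccl8, not a member of that list, rose by 5.01. All 4 tested neutrophil markers of 8 were higher (3 after median-ratio scaling), with sums of 1.30 to 2.30 at 0 d and 25.1 to 45.3 at 7 d, most of it from S100a8 (4.49). In 2 of these 4 the groups did not overlap. Ly6g, Mpo, Cxcr2 and Camp stayed under the minimum. A marker near absent at 0 d could reach that minimum through its 7 d samples alone, so the filter partly sets this count. Retnlg (1.47) lost its call without C3 (1.40), C4 (1.40), D7a (1.17) or D7d (1.15). None of the 5 tested lymphocyte markers of 10 was called, and 4 of 7 dendritic cell markers rose, under both scalings.

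Interferon-stimulated and matrix genes varied between the 7 d samples as well. Of 23 interferon-stimulated genes, 13 rose and none fell (7 and 0 after median-ratio scaling), with Ifit3, an antiviral RNA-binding protein, at 3.79, 3.88, 3.64 and 3.47 and then 19.2, 10.5, 4.40 and 8.56 (1.16 ± 0.32, limma adjusted p = 0.0119). D7c was the lowest of the 7 d samples. Of 21 collagen genes, 9 rose and none fell (6 and 1), and of 20 matrix remodelling genes 13 rose and none fell (10 and 2). Postn (periostin) rose by 2.99, Timp1, an inhibitor of matrix proteases, by 3.30, and Tnc (tenascin C) by 2.20. Spp1 (osteopontin) was at 30.8, 11.1, 10.01 and 92.4 at 7 d, against 4.41 to 7.36 at 0 d, so that D7d alone held most of its level (1.90). Markers of fibroblasts and fibro-adipogenic progenitors, 10 tested, gave 3 that rose and 1 that fell with a median of 0.11 as deposited, and 2 that rose and 3 that fell with -0.24 after median-ratio scaling. Of 23 tested cell cycle genes, 9 rose and 1 fell (4 and 1), with Mki67 at 0.265, 0.233, 0.326 and 0.351 and then 1.54, 0.904, 0.556 and 2.52.

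Schwann cells, which ensheathe axons, were examined through 2 lists. Of 8 tested markers of myelinating Schwann cells, 7 fell and none rose under both scalings, with summed FPKM of 134 to 287 at 0 d and 21.9 to 52.1 at 7 d. Mbp, a basic protein of myelin, fell by 2.57 on the log2 scale and Prx (periaxin) by 2.52. Of 11 tested markers of repair Schwann cells, 8 rose and none fell (7 and 0), and their sums were 6.61 to 9.60 at 0 d and 43.9, 35.1, 19.2 and 65.7 in D7a to D7d. Ngfr, the low-affinity neurotrophin receptor, rose from 0.406 ± 0.150 to 16.7 ± 9.20 (SD, n = 4), or by 3.496, and the trophic factor Gdnf by 1.17.

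The remaining marker lists had calls in both directions. Of 9 satellite cell and myoblast markers 4 rose and none fell (4 and 1 after median-ratio scaling), among them the fusion gene Mymk (1.76), while Pax7, the gene that defines satellite cells, was not called (0.00). Of 9 endothelial markers 1 fell, and 8 fell after median-ratio scaling. Of 9 pericyte and smooth muscle markers, 1 rose and 3 fell (0 and 5). Of 6 tendon markers, Scx rose by 3.48 and 3 fell, with the same counts after median-ratio scaling, and of those that fell Fmod (-1.08) had no call without C1 (-0.94), C2 (-1.06), C4 (-1.11) or D7d (-0.99) and Kera (-0.86) none without C1 (-0.74), C4 (-0.69) or D7c (-0.67). Of 9 adipocyte markers 2 fell (3 after median-ratio scaling), and Retn (-0.77) had no call without C1 (-0.54). None of the 5 tested erythrocyte markers was called as deposited, and 3 were lower after median-ratio scaling. Of the skin markers 2 reached the minimum, and 1 of them, Trp63, which encodes p63, rose by 1.89 and also after median-ratio scaling.

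**Figure D4:**
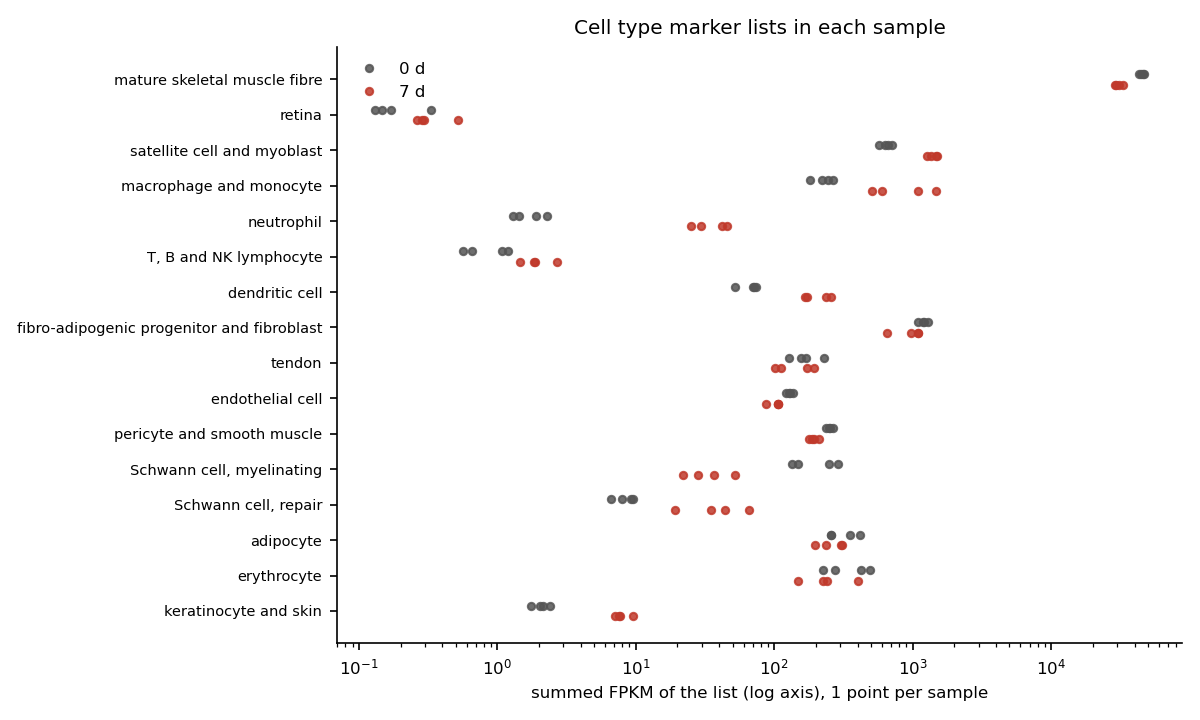
Summed FPKM of 16 cell type marker lists in each sample (horizontal log axis), with 1 point per sample at 0 d and at 7 d. Macrophage, neutrophil and repair Schwann cell sums lie higher in all 7 d samples, and muscle fibre and myelinating Schwann cell sums lie lower in all of them.

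Clock genes, 16 tested, had no common direction: 4 rose and 1 fell as deposited and 1 rose and 3 fell after median-ratio scaling, with medians of 0.16 and -0.13. As deposited this lies near the share of all tested genes, 19.0% higher and 5.03% lower with a median of 0.20. Per2 rose under both scalings (1.02) and Bhlhe41 fell under both (-0.87).

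Outside the lists, the genes with the largest changes included Rrad, a small GTPase that restrains calcium channels, at 3.38, 2.12, 6.23 and 2.68 and then 127, 192, 120.4 and 97.3 (4.91 ± 0.27, limma adjusted p = 5.74e-07). Of its exon bases, 141 overlap a gene on the other strand. Orm2, an acute phase glycoprotein, had 0 fragments in every 0 d sample and 16.2, 13.6, 20.3 and 16.2 at 7 d. Against a floor of 3 fragments per sample this was at least 65.8-fold higher. Among the lower genes, Smco1 went from 48.0, 51.5, 45.8 and 43.7 to 1.23, 1.38, 1.22 and 1.28 (-4.40 ± 0.07, limma adjusted p = 4.72e-10). Mlf1 (-4.29), Odf3l2 (-4.05), the kyphoscoliosis peptidase Ky (-3.89), the lactate transporter Slc16a3 (-3.87) and Tmem233 (-3.71) fell nearly as far. In each of them every 7 d sample lay below every 0 d sample, which the rule for naming these genes required.

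The changes at 7 d were then placed in time. Of the 3409 higher genes, 834 (24.5%) had their highest mean of the 8 time points at 7 d, against 12.3% of all tested genes, and 772 (22.65%) had it at 3 d and 569 (16.7%) at 28 d. Of the 903 lower genes, 180 (19.9%) had their lowest mean at 7 d, against 3.41% of all tested genes, and 339 (37.5%) at 3 d. A gene called at 7 d had to be far from 0 d on that day, so these shares are a description.

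Few genes separated 7 d from the neighbouring days. Against 5 d, 84 of 18452 genes (0.455%) were higher and 40 (0.217%) lower at 7 d, and against 14 d, 43 of 18551 (0.232%) were higher and 52 (0.280%) lower. These counts depend on single samples. Against 5 d they were 42 and 21 without D5a, 54 and 24 without D5b, 43 and 23 without D5c, 61 and 28 without D5d and 47 and 23 without D7a. Against 14 d they were 22 and 35 without D14a, 22 and 36 without D14b, 27 and 36 without D14c, 16 and 39 without D14d, 20 and 36 without D7a and 23 and 57 without D7b. Sln was the clearest case, at 27.3, 31.2, 26.9 and 30.2 at 5 d, at 96.3, 111, 100.3 and 86.7 at 7 d and at 1253, 936, 538 and 429 at 14 d. No day overlapped the next, with log2 differences of 1.73 ± 0.08 between 7 d and 5 d (limma adjusted p = 8.6e-05) and of -2.86 ± 0.30 between 7 d and 14 d. Chrng was at 13.6 to 17.2 at 5 d, 28.4 to 31.9 at 7 d and 44.5 to 51.0 at 14 d (0.93 above 5 d and 0.62 below 14 d on the log2 scale, the second with no call without D14a, at -0.58). Chrnd behaved alike, 0.75 above 5 d and 0.92 below 14 d, and Igfn1 was 1.36 lower at 7 d than at 14 d.

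Other genes had lower levels on the later of these days. Trim63 was at 531, 607, 593 and 525 at 5 d, at 212 to 329.8 at 7 d and at 114, 138, 154 and 112 at 14 d, so that 7 d was 1.13 below 5 d and 1.00 above 14 d on the log2 scale. The second call was lost in 5 of 8 fits that left out a sample (D14a, D14b, D14d, D7a or D7b; limma adjusted p up to 0.0947). Mybpc2 was at 415 to 458 at 5 d, 180.1 to 240 at 7 d and 56.6 to 97.1 at 14 d, 1.13 below and 1.39 above its neighbours. Tubb4b, a beta-tubulin, was 1.52 higher at 7 d than at 14 d, as was its pseudogene Tubb4b-ps1 (1.27), which may share its reads. Mstn stood at 31.4 to 37.4 at 5 d, 19.9 to 27.4 at 7 d and 6.63 to 15.1 at 14 d, and the difference of 1.27 from 14 d lost its call in 7 of 8 such fits (all but that without D14c, limma adjusted p up to 0.118).

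A further set stood apart at 7 d from both neighbours. Slc15a2, a peptide transporter, was at 0.638 to 1.42 at 5 d, 3.498 to 5.00 at 7 d and 0.139 to 1.52 at 14 d, with log2 differences of 1.42 and 1.58, the second lost in 6 of 8 fits (without D14c, D14d or any 7 d sample; adjusted p up to 0.0842 with limma). The interferon-inducible GTPase Gbp4 was 1.13 above 5 d and 0.93 above 14 d, and Iigp1, of a related family, 1.31 and 0.75, where the second was lost in 4 fits (D14a, D14b, D14d or D7a left out; limma adjusted p up to 0.0635). Nmrk2, a nicotinamide riboside kinase of muscle, dipped to 13.7 to 20.2 at 7 d, from 31.8 to 51.4 at 5 d and before 25.7 to 35.1 at 14 d (-1.34 and -0.82, the second lost in 7 fits, all but that without D7a; limma adjusted p up to 0.0933).

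**Figure D5:**
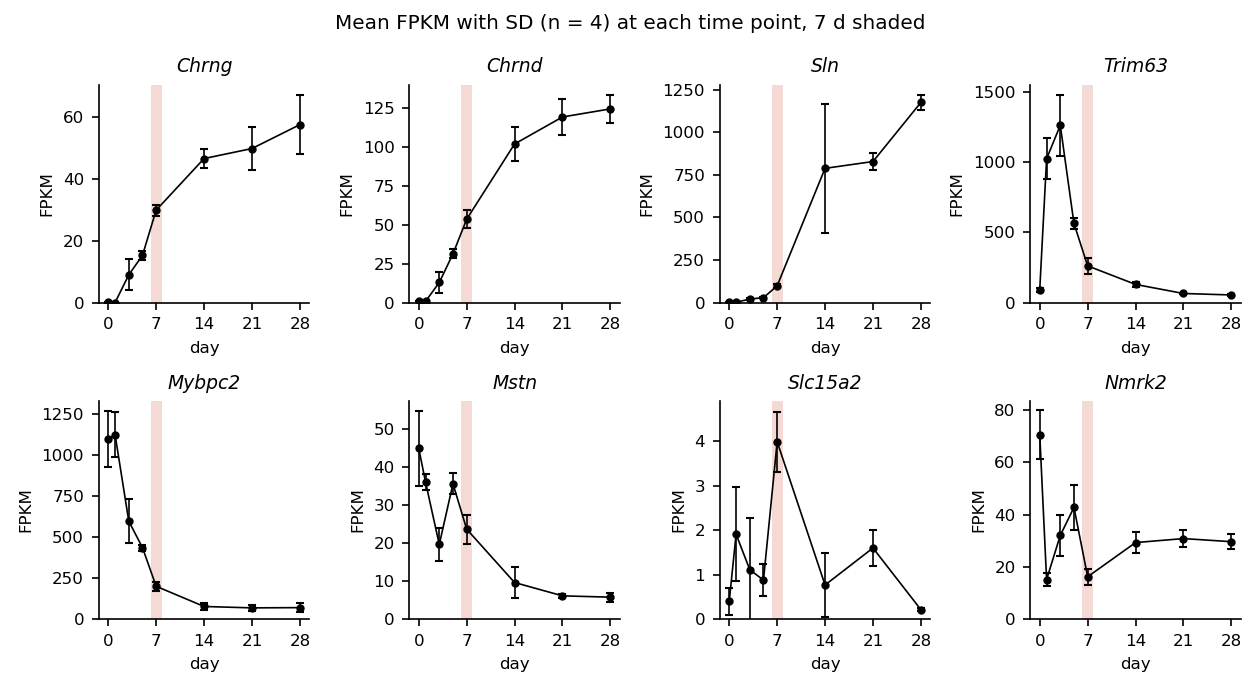
Mean FPKM of 8 genes at each of the 8 time points (bars are ± SD, n = 4, cut at 0), with 7 d shaded. Chrng, Chrnd and Sln are still climbing at 7 d, Trim63, Mybpc2 and Mstn are lower at 7 d than at 5 d and lower again at 14 d, Slc15a2 is at its highest, and Nmrk2 is lower than on the days beside it, as it also was at 1 d.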

How the data were processed

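GAS muscle of C57BL/6 mice (C57BL/6J in the study's methods) was sequenced by the authors with 150-base paired reads; the submitters' processing notes name CASAVA and HISAT2 2.1.0. The deposited values are FPKM per gene and sample, normalized by the authors, and 33356 of 33397 genes matched GENCODE release 21 (GRCm38). Whether counting used strand is not stated. With the exon lengths of that annotation, 99.3% of values under 200 fragments were whole within 0.02, which gave the depths quoted. The floor of 3 fragments covers counting error only.

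Genes that reached an FPKM of 0.1 in 4 or more of 8 samples were tested on log2(FPKM + 1) with limma 3.58.1 in R 4.3.3 (trend in the prior variance, Benjamini-Hochberg adjustment). A call needed an adjusted p under 0.05 and a change of 1.5-fold. Single genes measured by the study were also given a two-sided exact permutation test, whose smallest p for 4 against 4 is 0.0286. The scripts were tested on simulated data. Alternatives were median-ratio, quantile and TPM scaling, a pseudocount of 0.1, other filters and folds, limma-voom on recovered fragments, all 32 samples in the fit, and each sample left out.

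Named by rule were the 10 largest rises and 10 largest falls without overlap (mean FPKM of at least 1, no clone-like symbol), 6 and 6 against 5 d and 14 d, the molecules the study measured, and of each list all members up to 6 or else the 2 largest rises and 2 largest falls. Other list members named, and Rpl3l, were chosen after their values were seen. The members and lists were chosen with earlier results of these data known. Some items are not reported here.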

Additional observations from a re-analysis of the deposited data

Results flagged for a closer look

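In 16 of 343 groups of 4 samples that were examined, 1 sample stood far from the other 3, where chance flags about 1 in 20 groups, or 17.1 here. At 7 d these were Gadd45a in D7b (275.6 FPKM, the others 210.4 to 218.6), Gapdh in D7c (104.3), Ncam1 in D7d (4.859), Clcn1 in D7b (16.73), Myl3 in D7b (154.7, the others 32.13 to 49.1), Capn2 in D7c (16.72), Igfbp5 in D7c (376.8), Hspb8 in D7c (2234) and Mt1 in D7a (50.71). At 0 d they were Mlf1 in C4 (198.9 FPKM), Odf3l2 in C2 (22.66), Pycard in C1 (0.2903), Il18 in C4 (1.528), Eif4ebp1 in C3 (21.72), Hba-a2 in C2 (7.032, the others 2.55 to 2.919) and Chrna9 in C4 (0.1041, the others 0).

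The change from 0 d differed between 7 d and 5 d for 24 of 173 named genes, by limma's test of 7 d against 5 d, in which the 0 d samples cancel. Up to 6 higher and 6 lower genes were named because this same test called them, so the count is a description. Over all 18452 genes tested, 84 were higher and 40 lower. The log2 difference of 7 d minus 5 d was 0.9273 for Chrng, 0.7537 for Chrnd, 0.605 for Chrne, 1.168 for Chrna9, 1.733 for Sln, 0.8081 for Mybph, 0.6098 for Id2, 0.6887 for Mymk, 0.7481 for Scx, 1.42 for Slc15a2, 1.314 for Iigp1, 1.129 for Gbp4, 1.227 for Clca1, 1.128 for Fkbp1a-ps2, 0.7096 for Aif1l and 0.6753 for Pgm5. It was negative for Trim63 (-1.128), Mylk2 (-0.767), Mybpc2 (-1.128), Nmrk2 (-1.341), Ggt6 (-1.23), Cplx3 (-1.057), Dupd1 (-1.012) and Ppp1r27 (-0.8001). With each sample left out in turn, this call was lost in 7 of 8 fits for Mybph (limma adjusted p up to 0.151) and Mymk (0.13), in 6 for Scx (0.105) and Chrna9 (0.1), in 5 for Chrne (0.0668) and Ppp1r27 (0.0829), in 4 for Ggt6 (0.0725), Dupd1 (0.083) and Fkbp1a-ps2 (0.0895), in 2 for Mylk2 (0.057, without D5a or D5c) and in 1 for Id2 (a log2 difference of 0.58 without D5b).

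The same test of 7 d against 14 d gave 22 named genes, of which up to 6 higher and 6 lower were named because it called them. Over all 18551 genes tested, 43 were higher and 52 lower. The log2 difference of 7 d minus 14 d was 0.9953 for Trim63, 1.392 for Mybpc2, 1.272 for Mstn, 1.582 for Slc15a2, 0.7536 for Iigp1, 0.9288 for Gbp4, 1.222 for Chrna9, 1.524 for Tubb4b, 1.272 for Tubb4b-ps1, 1.495 for Orm2 and 1.38 for Ppp1r27. It was negative for Chrng (-0.6231), Chrnd (-0.9151), Smco1 (-0.8408), Sln (-2.864), Myh4 (-0.849), Nmrk2 (-0.8242), Fkbp1a-ps2 (-1.568), Hpgd (-1.439), Igfn1 (-1.36), Aif1l (-1.356) and Pgm5 (-1.278). Fkbp1a-ps2 and Tubb4b-ps1 are pseudogenes whose reads may come from their parent genes. In the fits that left out 1 sample, the call against 14 d was lost in 7 of 8 for Myh4 (limma adjusted p up to 0.12), Mstn (0.118) and Nmrk2 (0.0933), in 6 for Chrna9 (0.0885) and Slc15a2 (0.0842), in 5 for Trim63 (0.0947), in 4 for Hpgd (0.0649) and Iigp1 (0.0635) and in 1 for Chrng (-0.58 without D14a).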

How the results depend on the processing

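The number of genes called higher at 7 d than at 0 d, 3409, was 1541 with median-ratio scaling, 1633 with quantile scaling, 6533 as TPM, 5367 with a pseudocount of 0.1, 5450 with limma-voom on recovered fragments, 1154 at 2-fold and 7509 with no fold limit, and the number called lower, 903, was 1706, 1632, 884, 1352, 1395, 425 and 1961. Leaving out 1 sample gave 3242 to 3855 higher and 877 to 925 lower. Against 5 d, 84 higher and 40 lower became 21 and 8 at 2-fold, 45 and 23 with no filter on low values and 144 and 81 with no fold limit; leaving out 1 sample gave 42 to 82 and 21 to 50. Against 14 d, 43 higher and 52 lower became 11 and 17 at 2-fold, 17 and 29 with no filter and 79 and 79 with no fold limit, with 90 lower in a fit of all 32 samples and 82 lower with limma-voom; leaving out 1 sample gave 16 to 41 and 35 to 57. The share of calls that were higher was 79.06% as deposited, 47.46% with median-ratio scaling, 50.02% with quantile scaling and 88.08% as TPM. Median-ratio and quantile scaling set the typical gene near no change by construction, so their shares cannot tell why more genes were higher as deposited. The cause of these shifts was not tested.

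Medians of gene lists changed sign under median-ratio and quantile scaling for ubiquitin ligases (-0.05391 and -0.003245), polyamine genes (-0.107 and -0.09448), Atf4 targets (-0.1247 and -0.1041), clock genes (-0.1268 and -0.127) and fibro-adipogenic markers (-0.2406 and -0.2099), and under quantile scaling for mature muscle fibre markers (0.03673). Of 172 named genes, 163 kept direction and call under median-ratio scaling. Ggt6 was not called against 0 d and reversed as TPM (0.001796) and with a sample left out (-0.1338 to 0.04685), and Comp ran from -0.4813 without D7b to 0.02748 without D7c. No paired analysis was possible because the 7 d columns carry letters, which match no number of the 0 d columns C1 to C4, and no column can be tied to a numbered sample in the labels. Depth limits genes under about 3 fragments per sample.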
